A study of Mus musculus with 46 samples.

Results

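The liver genes of urea synthesis and amino acid breakdown were followed here in mice fed a lipid-rich diet (LD) or a carbohydrate-rich diet (CD), which carry the labels high fat and low fat and give an equal share of energy as protein. The members are a list of 49 gene symbols, of which 48 had a row in the count table of 25494 genes and all 48 passed the filter on low counts. The symbol Gstz1x matched no row and is not analysed here. All animals were male C57BL/6 mice, put on their diet when young and kept on it for months. Liver RNA was measured in 5 mice per diet, the histone mark H3K27ac in 3 samples per diet, binding of the transcription factors Hnf4a and C/EBPa in 2 samples per diet each, and promoter contacts (promoter capture Hi-C, PCHi-C) in 2 libraries per diet that were pooled. For each factor 1 or 2 libraries stood apart. Peak height is the number of sequenced tags in a peak, scaled by the authors to a shared depth. At loci found in all samples, the median Hnf4a height was 21.5 in CD replicate 1 and 42.8 in CD replicate 2, with 35.8 and 33.5 in the LD samples between them. For C/EBPa it was 37.5 in CD replicate 1 and between 24 and 25.5 in the other 3 samples. For RNA, 31707963 to 39012699 read pairs were counted per mouse. Whole liver was used, so that fewer cells of a type and less RNA per cell cannot be told apart.

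The urea cycle turns ammonia and the nitrogen of aspartate into urea, and only hepatocytes run it in full. Its first enzyme, Cps1, makes carbamoyl phosphate in the mitochondrion and is the point at which flux is set, with N-acetylglutamate from Nags as its obligate activator. The transaminases pass amino groups between amino acids and keto acids, and the catabolic enzymes feed the carbon skeletons into the tricarboxylic acid cycle, glucose or ketone bodies. Glucagon, glucocorticoids, Hnf4a and C/EBPa are known regulators of this programme, and H3K27ac marks active promoters and enhancers.

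Most called members were lower on LD. Of the 48 members, 15 were called lower on LD and 2 higher, and 31 were not called. A call means an adjusted p-value under 0.05 in edgeR's quasi-likelihood test and a fold change above 1.2. Over all 13494 genes tested, 11.1% were called lower on LD and 13.8% higher. The median log2 fold change, LD over CD, was -0.14 over the members and -0.0019 over all genes tested. The values of the 5 mice of each diet did not overlap for 13 members, 11 lower and 2 higher on LD, against 8.35% and 10.2% of all genes. In TPM (transcript counts scaled for gene length and library size), the members had a median level of 234 against 8.59 over all genes, and the range ran from 1.07 for Asns to 2476 for Bhmt.

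**Figure D1:**
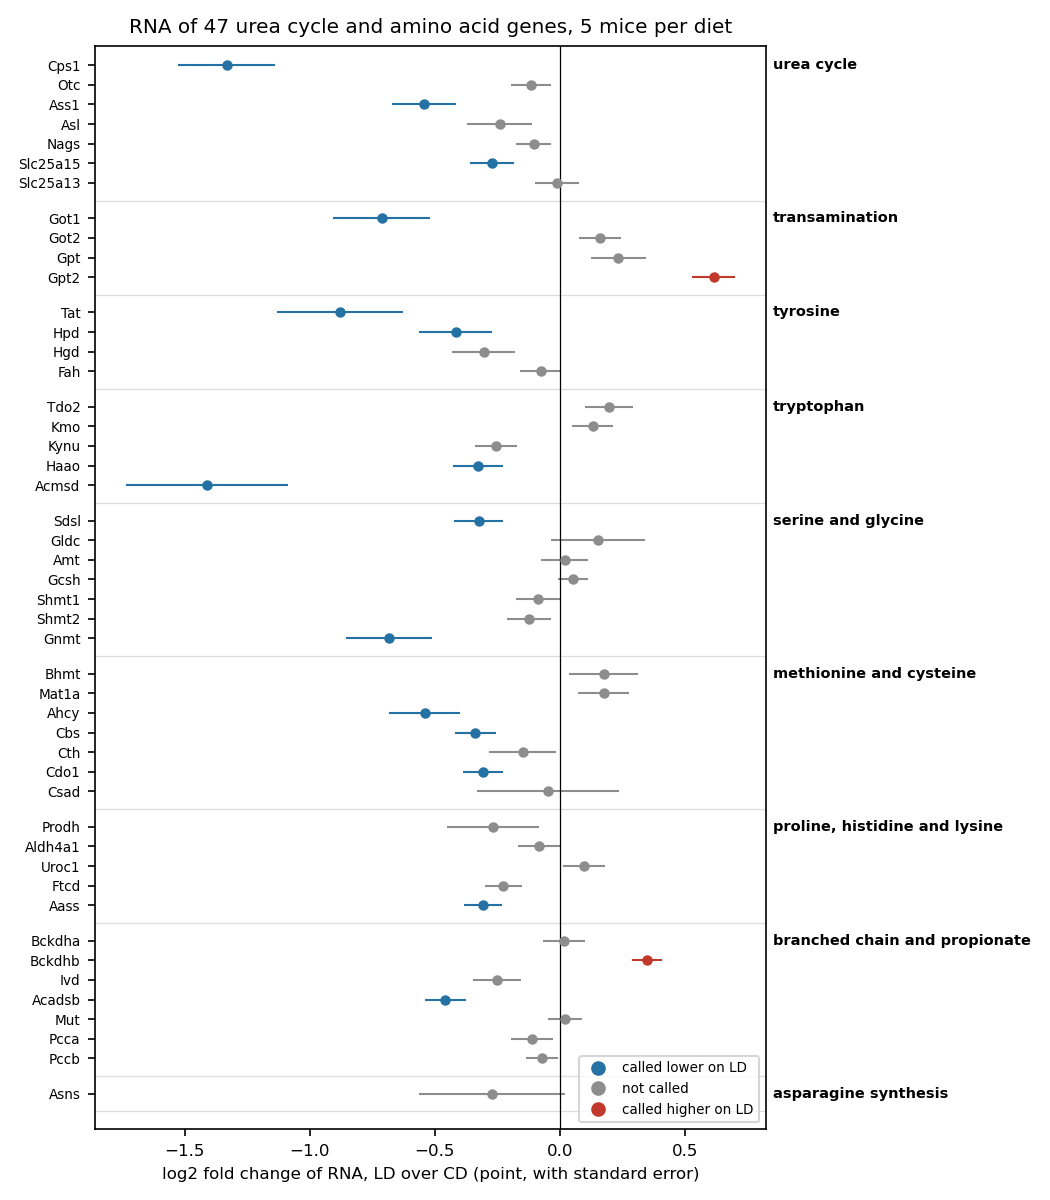
Log2 fold change of RNA, LD over CD, of 47 of the 48 members with 5 mice per diet. Each point is 1 gene with its standard error, grouped by role. Blue points are the 15 called lower on LD, red points the 2 called higher, and grey points 30 of those not called. Acmsd and Cps1 lie farthest to the left and Gpt2 farthest to the right.

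To show the DNA that the 2 factors occupied at the genes with the largest RNA changes, the Hnf4a or C/EBPa peak within 20 kb that stood highest among the peaks of its factor was taken for each of the 8 called members with the largest change, and 4 of the windows are printed, those of Acmsd and Cps1 because they hold a motif, that of Tat because its peak differed between the diets, and that of Gpt2 because its RNA was higher on LD. They are the central 200 bases, on the plus strand of mm9, the build of all positions given here. The Acadsb window was chosen after its values were seen, as the C/EBPa peak near Acadsb that both CD samples and no LD sample had. Capitals mark matches, on either strand, to CAAAGNNCA, the core of an Hnf4a site, or to TTGCNNAA, a C/EBP site.
Acmsd: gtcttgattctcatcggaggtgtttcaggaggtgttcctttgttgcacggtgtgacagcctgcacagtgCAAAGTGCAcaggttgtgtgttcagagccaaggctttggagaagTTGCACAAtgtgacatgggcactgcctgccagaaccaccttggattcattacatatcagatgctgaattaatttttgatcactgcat
Cps1: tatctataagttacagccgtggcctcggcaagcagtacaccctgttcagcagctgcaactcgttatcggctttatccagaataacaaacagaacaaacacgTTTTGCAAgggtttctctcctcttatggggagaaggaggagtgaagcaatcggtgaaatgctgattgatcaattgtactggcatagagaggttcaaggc
Tat: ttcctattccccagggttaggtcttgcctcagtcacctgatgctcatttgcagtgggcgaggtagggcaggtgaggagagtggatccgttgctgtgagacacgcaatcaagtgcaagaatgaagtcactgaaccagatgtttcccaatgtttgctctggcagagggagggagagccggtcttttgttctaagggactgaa
Gpt2: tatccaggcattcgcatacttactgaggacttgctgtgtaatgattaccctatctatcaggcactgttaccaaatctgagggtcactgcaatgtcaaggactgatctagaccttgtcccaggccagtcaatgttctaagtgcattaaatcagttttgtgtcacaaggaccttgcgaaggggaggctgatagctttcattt
Acadsb: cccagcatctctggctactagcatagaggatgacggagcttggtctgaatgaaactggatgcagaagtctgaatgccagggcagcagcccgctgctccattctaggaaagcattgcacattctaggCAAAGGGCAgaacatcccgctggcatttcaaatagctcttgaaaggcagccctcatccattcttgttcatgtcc

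The Acmsd, Cps1 and Tat windows are C/EBPa peaks and the Gpt2 window is an Hnf4a peak. The Acmsd window, chr1:129629115-129629314 in an intron of the gene, held 1 match to each motif. The Cps1 window, chr1:67150583-67150782, is intergenic and held 1 C/EBP match. The Tat window, chr8:112503379-112503578, and the Gpt2 window, chr8:88002413-88002612, are intergenic and held neither. The Acadsb window, chr7:138592730-138592929, lies past the end of the gene, in what the annotation gives as an intron of Fgfr2, and held 1 Hnf4a match. Of all 45827 Hnf4a loci of the same length, 23.0% held CAAAGNNCA and 18% TTGCNNAA, and of all 32984 C/EBPa loci 11.5% and 40.6% did. The windows of Got1 (a C/EBPa peak) and of Gnmt, Ass1 and Ahcy (Hnf4a peaks) held no match to either, which says only that these letters are not in those windows.

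In the urea cycle, the first step fell the most. Cps1 was called 2.52-fold lower on LD, Ass1 (argininosuccinate synthase, which brings in the nitrogen of aspartate) 1.46-fold lower, and Slc25a15 (the ornithine carrier of the mitochondrion) 1.21-fold lower, of the 8 members in the group. Cps1 (chr1:67169601-67277841) had 3560.4, 3822, 2050.4, 2303 and 2050.0 CPM (counts scaled to library size, with TMM factors) in the LD mice and 7425, 8342, 6914, 6489.7 and 5574 in the CD mice. The highest LD mouse stayed under the lowest CD mouse. The log2 fold change was -1.33 with a standard error of 0.19 (edgeR, adjusted p = 0.000545), and Cps1 was called in all 18 alternatives tried. For Ass1 (chr2:31325790-31376190) the LD mice had 1493, 1742, 1114, 1263 and 1148 CPM and the CD mice 2274, 2099, 1638, 1876 and 1973. The highest LD mouse was above the lowest CD mouse, and the log2 fold change was -0.54 with a standard error of 0.13 (edgeR, adjusted p = 0.0066). Slc25a15 ranged from 257 to 327 CPM on LD and from 310.1 to 402 on CD (edgeR, adjusted p = 0.035), and was called in 7 of 18 alternatives.

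No other member of the group was called. Otc, which makes citrulline, had 575 ± 48.6 CPM (SD, n = 5) on LD and 623 ± 44.9 on CD, and Asl, which splits argininosuccinate, 360.1 ± 73.7 and 426 ± 42.7. The level of Nags was 56.0 ± 4.86 CPM on LD and 60.2 ± 3.33 on CD, and that of Slc25a13, the aspartate and glutamate carrier, 313 ± 22.0 and 315 ± 39.0. The log2 fold changes of these genes lay between -0.24 and -0.01, and the sign for Slc25a13 turned on the TPM scale. In TPM, Cps1 stood at 936 ± 281 on LD and 2244 ± 345 on CD.

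Among the transaminases, 1 gene was called in each direction. Got1, the aspartate aminotransferase of the cytosol, was called lower on LD, and Gpt2, the alanine aminotransferase of the mitochondrion, was called higher. Got1 (chr19:43574243-43599095) had 219, 213, 137, 145 and 103 CPM in the LD mice and 309, 299, 225, 268 and 240.3 in the CD mice. The mice of the diets did not overlap, and the log2 fold change was -0.71 with a standard error of 0.19 (edgeR, adjusted p = 0.018). Gpt2 (chr8:88016516-88051457) had 835, 725, 851, 936 and 795 CPM on LD against 545, 512, 625, 493 and 531 on CD. All LD mice were above all CD mice, at a log2 fold change of 0.61 with a standard error of 0.09 (edgeR, adjusted p = 0.00027). Got2, the mitochondrial partner of Got1, had 416 ± 52.6 CPM on LD and 372 ± 17.3 on CD, and Gpt, the cytosolic partner of Gpt2, 258 ± 40.9 and 219.6 ± 22.0, and neither was called.

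In tyrosine breakdown, 2 of 4 measured members, the first enzymes of the pathway, were called lower on LD. Tat, the glucocorticoid-responsive tyrosine aminotransferase that opens the pathway, had 796, 889, 522, 454 and 437 CPM in the LD mice and 1304, 1429, 1352, 787 and 828 in the CD mice. The 2 highest LD mice overlapped the 2 lowest CD mice. Its log2 fold change was -0.88 with a standard error of 0.25 (edgeR, adjusted p = 0.025), but it was called in only 4 of the 10 fits that left out a mouse. Hpd, the next enzyme, ranged from 961 to 1823 CPM on LD and from 1862 to 2154 on CD (log2 fold change -0.42, standard error 0.15, edgeR adjusted p = 0.049), and was called in 3 of those 10 fits. The later enzymes Hgd (682 ± 85.8 and 842 ± 161 CPM) and Fah (537 ± 62.4 and 566.5 ± 14.7 CPM) were not called.

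In tryptophan breakdown, 2 of 5 members, both late in the pathway, were called lower on LD. Tdo2, which opens the ring and sets the rate, had 1700.3 ± 213 CPM on LD and 1484 ± 130 on CD, and Kmo 440.3 ± 39.1 and 402 ± 33.7, neither called. Haao and Acmsd act late, and Acmsd is the branch enzyme that sends the intermediate to full oxidation and away from NAD synthesis. Acmsd (chr1:129625990-129664141) had 12.9, 12.1, 5.93, 4.64 and 6.04 CPM in the LD mice and 28.3, 29.3, 16.7, 21.8 and 15.2 in the CD mice. The diets did not overlap, and the fall was the largest of the 48 members, at a log2 fold change of -1.41 with a standard error of 0.33 (edgeR, adjusted p = 0.011). An antisense gene, 2900009J06Rik, overlaps it, and the counting was by strand. Haao ranged from 385 to 559 CPM on LD and from 549 to 685 on CD (log2 fold change -0.33, standard error 0.10, edgeR adjusted p = 0.024), and was called in 6 of the 10 fits that left out a mouse. Kynu had 191 ± 13.3 and 228 ± 25.2 CPM with an adjusted p of 0.033, and missed the call on the fold change of 1.2 alone.

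Of the 7 methionine and cysteine genes, Ahcy, Cbs and Cdo1 were called lower on LD, and so was Gnmt, which uses S-adenosylmethionine and is grouped with glycine. Gnmt, which methylates glycine and disposes of surplus methyl groups, had 1421, 1193, 936, 927 and 628 CPM in the LD mice and 1723, 1654, 1452, 1719.8 and 1646 in the CD mice. No LD mouse reached a CD mouse, at a log2 fold change of -0.68 with a standard error of 0.17 (edgeR, adjusted p = 0.012). Ahcy, which clears the S-adenosylhomocysteine that methyl transfer leaves, had 662, 543, 491, 496 and 332 CPM on LD and 701, 661, 750.0, 826 and 733 on CD. One LD mouse lay at the level of the lowest CD mouse, and the log2 fold change was -0.54 with a standard error of 0.14 (edgeR, adjusted p = 0.013). Cbs, the entry to cysteine synthesis, ranged from 290.3 to 377 CPM on LD and from 389 to 466 on CD (edgeR, adjusted p = 0.0079), and Cdo1, which oxidises cysteine, from 1216 to 1556 and from 1677 to 1885 (edgeR, adjusted p = 0.012). Neither overlapped between the diets. Mat1a, which makes S-adenosylmethionine, had 3944 ± 526 and 3493 ± 322 CPM, and Bhmt, which remakes methionine with betaine, 2947 ± 716 and 2612 ± 241, and neither was called. The levels of Cth (268 ± 61.5 and 298 ± 26.5 CPM) and Csad (174 ± 61.4 and 179.5 ± 49.5 CPM) were not called.

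Of the other serine and glycine enzymes, only Sdsl was called, with 6.79 to 8.33 CPM on LD and 8.74 to 10.9 on CD (edgeR, adjusted p = 0.025), and in 7 of the 10 fits without a mouse. The subunits of the glycine cleavage system were not called: the log2 fold changes were 0.15 for Gldc, 0.02 for Amt and 0.05 for Gcsh, and those of the hydroxymethyltransferases Shmt1 and Shmt2 were -0.09 and -0.12. Gldc varied more among LD mice (116 to 267 CPM) than among CD mice (148 to 180.2 CPM). In proline, histidine and lysine breakdown, Aass, the first enzyme of the lysine pathway, was called, with 282 to 355 CPM on LD and 384 to 418 on CD (edgeR, adjusted p = 0.0090). Prodh, Aldh4a1 and Uroc1 were not called, at -0.27, -0.08 and 0.10. Ftcd did not overlap between the diets (246 to 294 and 295 to 345 CPM) at an adjusted p of 0.034 and missed the call on fold change alone. Asns, which makes asparagine, stood at 1.02 ± 0.219 CPM on LD and 1.24 ± 0.521 on CD, the lowest level of the members, and was not called.

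The branched chain group held 1 gene of each direction. Bckdhb, a subunit of the dehydrogenase that commits the branched chain keto acids, had 94.4, 86.5, 89.5, 96.0 and 83.0 CPM in the LD mice and 74.9, 70.5, 68.6, 68.6 and 70.6 in the CD mice. All LD mice lay above all CD mice, at a log2 fold change of 0.35 with a standard error of 0.06 (edgeR, adjusted p = 0.0011). Bckdha, the partner subunit, had 292 ± 31.8 and 289 ± 19.2 CPM and was not called. Acadsb, the dehydrogenase of the isoleucine branch, had 152, 138, 125, 111 and 115 CPM on LD and 172, 178, 184, 176 and 172 on CD. No mouse of LD reached CD, at a log2 fold change of -0.46 with a standard error of 0.08 (edgeR, adjusted p = 0.0014). Ivd, of the leucine branch, had 118 ± 17.4 and 141 ± 9.77 CPM (adjusted p = 0.066), and the propionate genes Mut, Pcca and Pccb lay between -0.11 and 0.02 on the log2 scale.

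**Figure D2:**
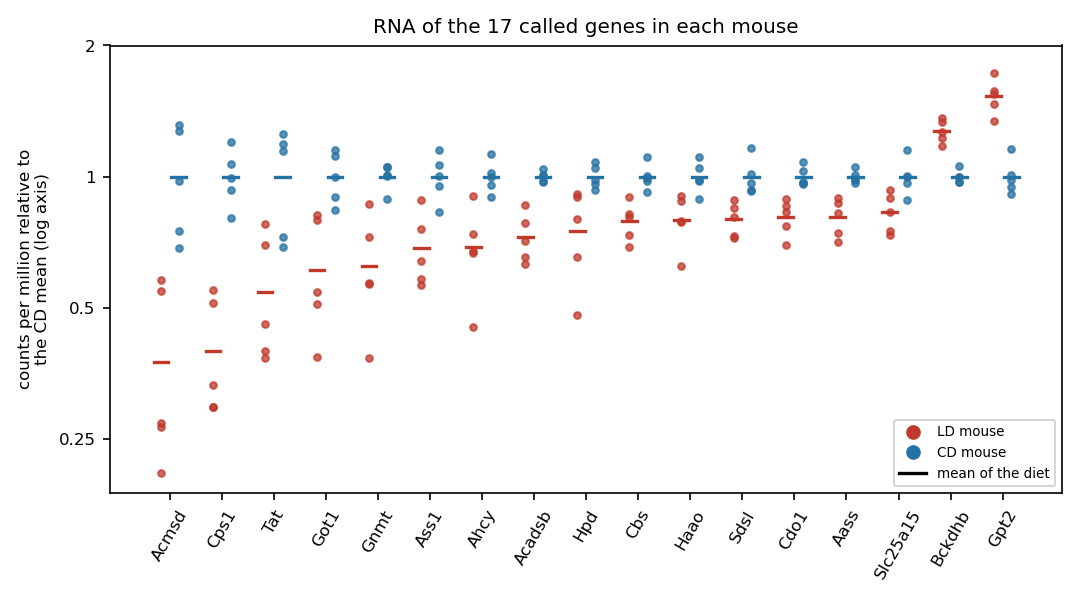
RNA of the 17 called members in each of 5 mice per diet, as CPM divided by the mean of the CD mice, on a log axis, with bars at the mean of the diet. The LD mice of Cps1, Acmsd, Got1 and Gnmt all lie under the CD mice, those of Tat reach into them, and those of Gpt2 and Bckdhb lie above.

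The LD mice were not uniform. LD replicate 5 was the lowest of the 10 mice for 11 of the 15 members called lower, and LD replicates 1 and 2 were the 2 highest LD mice for 12 of them, among them Cps1, Ass1, Got1, Tat and Acmsd. Members called lower on LD are likely to have an LD mouse as the lowest. These counts were not made over all genes, so a trait of the members and one of the libraries cannot be told apart. Without LD replicate 5 there were 11 calls lower on LD and 3 higher (10.1% and 12.2% of all genes), and without LD replicate 3 there were 10 and 2 (9.08% and 12%). Calls for Cps1, Acmsd, Ass1, Got1, Gnmt, Ahcy, Cbs, Aass, Acadsb, Gpt2 and Bckdhb held in all 10 fits that left out a mouse.

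Markers of some other liver cells were also called higher on LD, where 13.8% of all genes tested were. Of 10 markers of Kupffer cells and macrophages, 3 were called higher on LD by edgeR, with a summed level of 587 to 1354 TPM in the LD mice and 368 to 707 in the CD mice. Stellate cell markers were called higher in 4 of 8 (334 to 551 and 269 to 318 TPM), cholangiocyte markers in 1 of 6 (51.4 to 149 and 19.5 to 34.9 TPM), endothelial markers in 1 of 8 (273 to 384 and 297 to 342 TPM) and adipocyte markers in 2 of 2 tested (84.7 to 138 and 16.5 to 29.2 TPM), while the other 4 adipocyte markers, among them Adipoq and Plin1, did not pass the filter on low counts. The cholangiocyte call was Spp1, with 66.5 ± 28.4 CPM on LD and 16.8 ± 4.77 on CD. The other cholangiocyte markers had means of 0.245 to 1.72 CPM and were not called. Of these, Krt7 and Cftr were lower on LD, and Krt19, Epcam and Sox9 higher. Lymphocyte markers gave 1 call in each direction (5.09 to 12.7 and 5.46 to 7.42 TPM). Hepatocyte markers gave 3 calls lower on LD of 7, at Ahsg, Fgb and Serpina1a, with a summed level of 87215 to 101420 TPM on LD and 88587 to 104270 on CD, while Alb, Ttr and Apoa1 were not called and Hnf4a missed the call on fold change alone. The part of these shifts in the members' values was not tested.

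Genes of the same pathways outside the list moved in both directions. Of 47 other amino acid catabolism genes tested, 12 were called lower on LD and 7 higher, where 11.1% and 13.8% of all genes tested were. Kyat1, a kynurenine aminotransferase, had the largest fall, from 120.3 ± 15.6 to 63.1 ± 14.8 CPM (log2 fold change -0.93, edgeR adjusted p = 0.0016). The largest rise was that of Agxt2, a mitochondrial aminotransferase, from 201.5 ± 22.9 to 315 ± 23.8 CPM (0.64, edgeR adjusted p = 0.00020). Sds, the serine dehydratase, fell from 201 ± 41.1 to 123 ± 21.6 CPM (-0.70, edgeR adjusted p = 0.0063), and Hal, which opens histidine breakdown, from 338 ± 45.9 to 206 ± 36.5 CPM (-0.71, edgeR adjusted p = 0.0011). Gstz1 of the tyrosine pathway had 988 ± 102 CPM on LD and 935 ± 57.6 on CD and was not called. Sds, Hal and Gstz1, and Nr3c1 among the regulators, were chosen after their values were seen.

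Against 11.1% of all genes called lower and 13.8% called higher, most of the calls among carriers and regulators were lower on LD. Of 13 amino acid transporters tested, 1 was called higher on LD (Slc1a4, from 5.45 ± 1.03 to 11.0 ± 2.37 CPM) and 4 lower, with the largest fall at Slc43a1 (6.35 ± 1.24 to 3.28 ± 1.74 CPM, edgeR adjusted p = 0.045). Of 14 genes of the Atf4 response to amino acid shortage, Fgf21 was called higher (3.86 ± 1.33 to 9.89 ± 4.42 CPM, edgeR adjusted p = 0.026) and Atf4 itself lower (118 ± 7.54 to 91.7 ± 6.24 CPM, edgeR adjusted p = 0.0016). Among 11 regulators of amino acid catabolism, 5 were called lower (Ppargc1a, Crebbp, Insr, Foxo1 and Nr3c1). Ppargc1a, a coactivator of the fasting response, had the largest fall, from 11.0 ± 1.84 to 6.63 ± 0.474 CPM (log2 fold change -0.73, edgeR adjusted p = 0.00070), and Nr3c1, the glucocorticoid receptor, had 127 ± 12.1 CPM on LD and 156 ± 16.8 on CD (edgeR, adjusted p = 0.024).

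H3K27ac was lower on LD without overlap at 18 of 47 members and overlapped between the diets at 29, while the mark covered more of the genome on LD. The SICER peaks of a sample covered 149.8 to 160.4 Mb on LD and 139.7 to 145.4 Mb on CD. The measure was the share of a gene and 20 kb on each side that the peaks of a sample covered. Those 18 members (38.3%) had all LD samples below all CD samples, and none had them above. Over the 19138 genes with a peak, 5.3% were lower on LD in all samples and 20.9% higher. The median ratio LD over CD was 0.92 over the members and 1.09 over all genes. No minimum fold was set for the H3K27ac counts. At Aldh4a1, Gnmt, Mut, Hpd and Tat the ratio CD over LD was 1.125 to 1.19. Mut had 3.57% in each LD sample and 3.86, 3.86 and 4.46% on CD. By number of peaks, 5 members were lower on LD (1.76% of all genes). By coverage scaled to each sample's total, chosen after seeing the data, 31 were lower, against 14.8% of all genes lower and 13.2% higher. With 3 samples per diet an exact permutation test cannot go below p = 0.1, so that no p is given per gene.

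**Figure D3:**
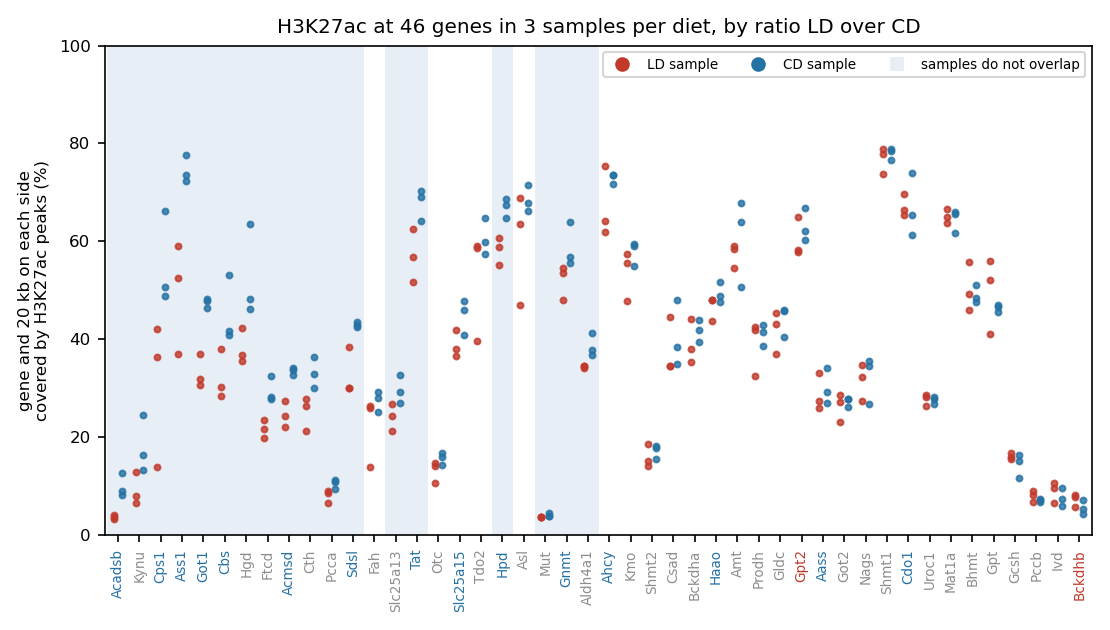
Share of each gene and 20 kb on each side that H3K27ac peaks covered, in percent, in 3 samples per diet, for 46 of the 47 members with a peak, ordered by the ratio LD over CD. Shading marks the 18 members whose samples do not overlap, all lower on LD, and the colour of a name gives the RNA call (blue lower on LD, red higher, grey not called).

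This difference was more frequent among the members called lower in RNA, a description with no test. Of the 15 called lower on LD, 10 (66.7%) had non-overlapping H3K27ac, at Cps1, Ass1, Got1, Tat, Hpd, Acmsd, Sdsl, Gnmt, Cbs and Acadsb. Among the 30 members not called that had a peak, 8 did (26.7%), at Slc25a13, Hgd, Kynu, Cth, Aldh4a1, Ftcd, Mut and Pcca. Over all genes with a peak, 18.4% of the 1485 called lower on LD and 4.93% of the 9987 not called were lower in H3K27ac in all samples. By number of peaks instead of coverage, the mean was higher on LD at Ass1, Got1, Tat, Hpd, Sdsl and Gnmt. Gpt2 had 57.8, 58.3 and 65% covered on LD and 62.0, 60.2 and 66.8% on CD, and Bckdhb 8.11, 7.78 and 5.69% and 5.19, 4.35 and 7.19%, so that the 2 genes with more RNA on LD overlapped in H3K27ac. Without LD replicate 3 neither overlapped, with Bckdhb higher and Gpt2 lower on LD, and without CD replicate 3 Bckdhb was higher on LD.

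At Cps1 the peaks covered 42.0, 36.3 and 13.8% of the window on LD and 50.7, 48.7 and 66.2% on CD. LD replicate 3 stood far under the other samples there, and it was the lowest sample for 31 of the 47 members, a count not made over all genes. Without LD replicate 3 the diets still did not overlap at Cps1, and 20 members in all were lower on LD and 2 higher, against 6.36% and 27.6% of all genes. Ass1 went from 72.3, 77.7 and 73.5% on CD to 59.1, 52.4 and 36.9% on LD, and Got1 from 47.8, 46.3 and 48.1% to 37.0, 31.8 and 30.5%. At Acmsd, the CD samples had 33.8, 32.8 and 34.0% and the LD samples 27.4, 24.3 and 22.0%. Tat was covered to 70.2, 69.0 and 64.1% on CD and 56.8, 62.5 and 51.6% on LD.

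**Figure D4:**
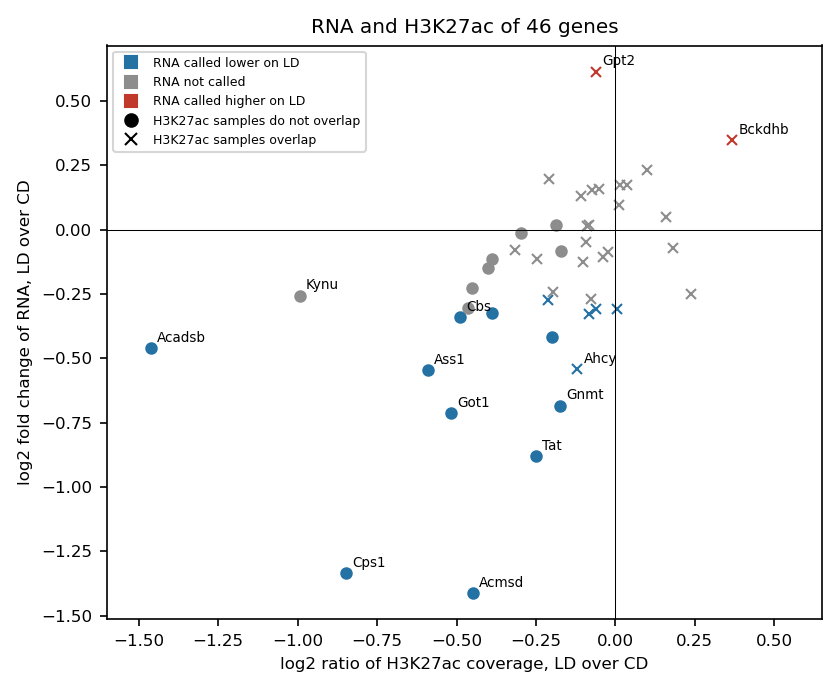
Log2 fold change of RNA against the log2 ratio of H3K27ac coverage, both LD over CD, for 46 of the 47 members with a peak. Circles are the 18 members whose H3K27ac samples do not overlap and crosses the others, coloured by RNA call. Cps1 and Acmsd are lowest in RNA, while Acadsb and Kynu are lowest in H3K27ac.

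Whole regions of H3K27ac were found on 1 diet only near 7 members, all on CD. Peaks were merged over the samples into loci (kept where 2 samples or more had one), 228 of them near members, of which 144 were found in all 6 samples, 9 in the 3 CD samples and no LD sample, and 0 in the 3 LD samples alone. Over the 50205 such loci of the genome, 0.757% were found on CD alone and 3.13% on LD alone. The CD regions were chr19:43604400-43605799 upstream of Got1, introns of Kynu (chr2:43426200-43432799), Cbs (chr17:31754600-31756799) and Ftcd (chr10:76045800-76048599), a region of 400 bp in the Prodh window whose centre lies in an exon of Dgcr6, 3 regions in and past Pcca, and chr7:138591400-138595999 past the end of Acadsb. The Kynu region was the longest, at 6600 bp.

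Acadsb had the lowest ratio of LD to CD among the members for both H3K27ac (0.36) and C/EBPa (0.36). Acadsb (chr7:138554115-138589725) kept an H3K27ac peak at its start in all 6 samples, but its window was covered to 3.17, 3.70 and 3.97% on LD and 8.20, 12.7 and 8.99% on CD. Counted only around its start, the samples overlapped. Within the CD region, 1 C/EBPa peak had heights of 74.0 and 51.5 in the CD samples and was in the list of neither LD sample, and another had 79.0 and 57.0 on CD and 12 on LD in both. An Hnf4a peak that overlaps the first had 29.8 and no peak on LD and 27 and 22.5 on CD. The C/EBPa peak at the start of Acadsb had 81.0 and 85.5 on LD and 169 and 120 on CD. The region lies in an intron of Fgfr2 by the annotation, and whether it acts on Acadsb was not tested.

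**Figure D5:**
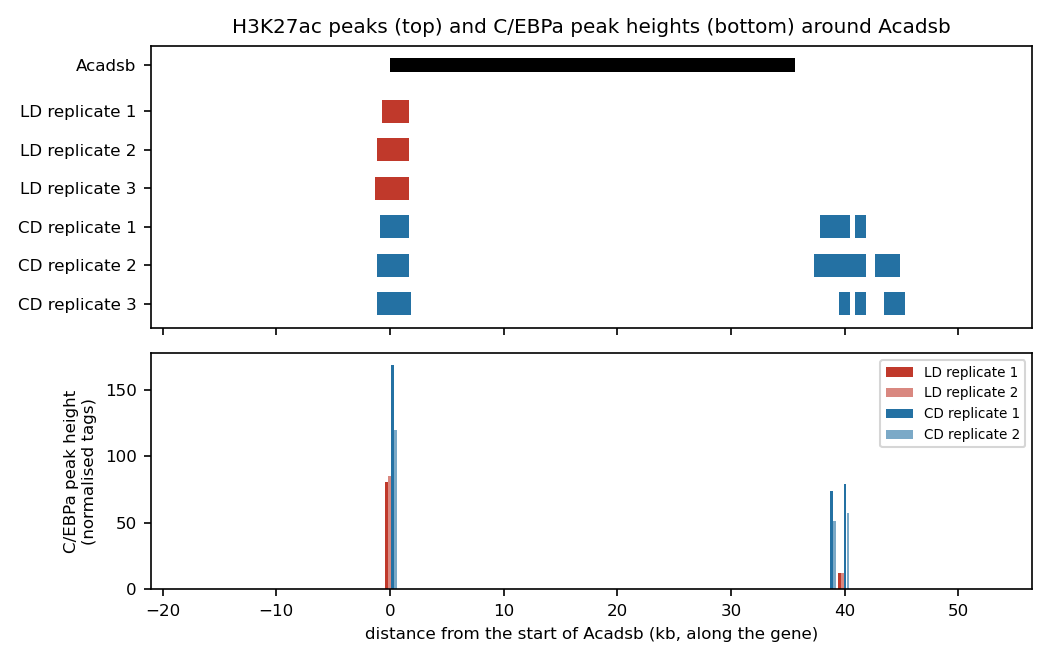
H3K27ac peaks of 3 samples per diet (top) and C/EBPa peak heights of 2 samples per diet, with bars of a locus set side by side (bottom), by distance from the start of Acadsb in kb. The cluster near 40 kb past the start is found in the CD samples for H3K27ac and is lower on LD for C/EBPa, and the peak at the start is found in all.

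An Hnf4a locus lay within 1 kb of the start of 35 of 48 members (72.9%, against 42.2% of all genes tested), and a C/EBPa locus of 29 (60.4% against 30.4%). The sum of C/EBPa heights within 20 kb was lower on LD in both samples, at a fold above 1.2, for 20 members and higher for 3. Over all 21218 genes with a peak these shares were 33.3% and 8.92%, so that the members' 41.7% and 6.25% lay near the background. Once the heights were rescaled to equal medians at shared loci, 13 members were lower and 10 higher on LD, against 22.6% and 17.9% of all genes. By number of peaks 3 were lower and 12 higher, against 13% and 9.63% of all genes, and the ratio turned at Tat and Ass1, among others. At Acadsb the sums were 100.5 and 97.5 on LD and 322 and 229 on CD. Tat had 165 and 159 on LD and 315 and 190.5 on CD, and its printed window alone 65 and 51.0 against 144.5 and 111. Without CD replicate 1 the log2 ratio of the sums at Tat was -0.234 and the call was lost, and without CD replicate 2 it was -0.959. Haao went from 311.5 and 206 on CD to 139.5 and 100.5 on LD. Tdo2 went the other way, with 159.5 and 173 on LD and 114 and 63.0 on CD, and the call held in all 8 alternatives, as did those of Prodh, Aldh4a1 and Uroc1, which were lower on LD. At Cps1 C/EBPa overlapped between the diets (315.5 and 312 on LD, 355 and 240.0 on CD). After rescaling, and also without CD replicate 1, Cps1 was higher on LD.

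Hnf4a sums followed the spread between the CD samples. At a fold above 1.2, only Sdsl was lower on LD in both samples (184 and 144 against 202 and 350.2), and Bckdhb (84.5 and 94.8 against 39.5 and 81.3) and Pccb (75.3 and 70.0 against 30.5 and 53.0) were higher. The Pccb call held in all 8 alternatives and that of Bckdhb in 4, and without CD replicate 1 the log2 ratio at Bckdhb was 0.141. Over all 18878 genes with a peak 4.88% were lower and 14.4% higher. After rescaling to equal medians at shared loci, 14 members were lower and 4 higher on LD, against 15.6% and 19.2% of all genes. For Cps1, 229 and 216 on LD lay between 137 and 335 on CD, and for Ass1, 522 and 374 stood beside 378 and 755. Without CD replicate 1, 39 members were lower on LD, as were 52.5% of all genes, and without CD replicate 2, 42 were higher, as were 70.2% of all genes. The direction thus turned with the CD sample that was used, over all genes as well as over the members. With 2 samples per diet an exact permutation test cannot go below p = 0.33.

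Promoter contacts in PCHi-C were scored on pooled libraries, with no replicate check. The lists hold only contacts that passed the authors' cutoffs on score and distance. A contact missing on a diet can thus be one that scored under the cutoff there. The members had 310 contacts on LD and 388 on CD, 231 of them on both, and 23 members had more on CD, 11 more on LD and 14 as many, 10 of which had none on either diet. Over all 17001 genes with a contact, 37.3% had more on CD and 44.2% more on LD. Kynu had 31 contacts on CD and 3 on LD, each of which was also on CD, and the highest, with chr2:43322679-43325051, scored 18.9 on CD and 6.10 on LD. Cps1 had 20 on CD and 12 on LD, and the highest, with chr1:67105468-67108282, scored 20.5 and 11.9. No contact was listed for Otc, Ass1, Hpd, Hgd, Kmo, Gnmt, Bhmt, Cbs, Aass and Acadsb.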

How the data were processed

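Diet groups follow the sample labels. The members and gene lists were chosen with earlier results of these data known. The authors aligned RNA read pairs with STAR 2.5 to mm9, counted them per gene and strand with featureCounts, and deposited the raw counts. The authors also deposited TPM values. Columns with their own fold changes and p-values were not used. The deposited H3K27ac peaks are SICER intervals, 1 list per sample. For Hnf4a and C/EBPa the deposited signal is the HOMER height of each peak, called per sample. The PCHi-C contacts carry a CHiCAGO score from the authors, with replicates pooled. Lists of chromatin domains were not used here.

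Counts were tested with edgeR 4.0.16 in R 4.3.3 (TMM, filterByExpr, robust quasi-likelihood fit, Benjamini-Hochberg adjustment over all genes tested). The standard error is the log2 fold change divided by the root of F. In simulated LD and CD counts over 13421 genes, 97 of 100 genes changed 2-fold and 71 of 100 changed 1.5-fold were recovered, with 11 false calls. Replicates are separate animals by the study's methods, so p-values measure the spread between animals of 1 experiment. Sequences were read from NCBIM37, the assembly of mm9, and loci were annotated with GENCODE vM1. Named are the members, except 1 that enters the counts and is not reported here, and, of other lists, the called gene with the largest change each way, with further genes of the marker, regulator and pathway lists added after their values were seen.

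RNA alternatives were DESeq2 1.42.0, DESeq2 size factors, 2 other filters on low counts, limma 3.58.1 on log2 TPM (1 or 0.1 added), a replicate block, a test against the fold threshold, and each library left out. Peak alternatives were a window around the gene start, peak number, larger peaks, rescaled values, and each library left out.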

Additional observations from a re-analysis of the deposited data

Results flagged for a closer look

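In 3 of 96 groups of 5 mice, 1 mouse lay apart from the other 4 by Dixon's 95% criterion, and chance flags about 1 group in 20. Kynu stood at 214.12 CPM in LD replicate 1, above 189.12 in the next LD mouse, and without that mouse it was called lower on LD, at a log2 fold change of -0.30. Gnmt stood at 1452.3 CPM in CD replicate 3, below 1646.4 in the next CD mouse, and was called lower on LD with and without it. Mut stood at 297.49 CPM in LD replicate 1, above 265.58 in the next LD mouse, and was not called with or without it.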

How the results depend on the processing

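Cps1, Gpt2, Acmsd and Acadsb were called in all 18 RNA alternatives. Members called lower and higher on LD numbered 15 and 2 by DESeq2 (10.7% and 13.2% of the 15825 genes it tested). On either TPM scale they numbered 10 and 4 (5.48 to 5.77% and 16.5 to 17.3% of all genes). The test against a fold of 1.2 gave 3 and 1 (3.4% and 6.81%). Leaving out 1 mouse gave 10 to 16 lower and 2 to 3 higher (8.83 to 11.7% and 12 to 13.9% of all genes), with the fewest lower without LD replicate 3. With a replicate block 14 were lower and 2 higher (10% and 13.5% of all genes). Mice with the same number correlated between -0.078 and 0.191 in their deviations, and the labels do not say whether the numbers pair them. On TPM, which moved the median of all genes by 0.073 or 0.076, Slc25a13 turned to 0.0719 and 0.0723 and Pccb to 0.0031 and 0.0032 (1 and 0.1 added). With 1 mouse left out, log2 fold changes of uncalled members crossed 0 for Slc25a13 (-0.0558 to 0.0472), Gldc (-0.0087 to 0.2843), Amt (-0.0371 to 0.0691), Csad (-0.1791 to 0.1287), Bckdha (-0.0292 to 0.0755) and Mut (-0.019 to 0.0354). For H3K27ac, 5 members were lower on LD by number of peaks (1.76% of all genes) and 31 by coverage scaled to each sample's total, an alternative chosen after seeing the data, with 14.8% of all genes lower and 13.2% higher. Leaving out 1 sample gave 0 to 2 higher and 19 to 23 lower (25.3 to 29.3% and 6.36 to 9.95% of all genes). By number of peaks the log2 ratio turned positive at Ass1 (0.229), Got1 (0.28), Tat (0.893), Hpd (0.737), Sdsl (0.17) and Gnmt (0.093). For Hnf4a, 1 member was higher on LD around the start of the gene (14.5% of all genes) and 1 with peaks of at least the median height (12%). By number of peaks 3 were higher and 1 lower (9.47% and 5.39%). Rescaling gave 4 higher and 14 lower (19.2% and 15.6% of all genes). Leaving out 1 sample gave 1 to 42 higher and 1 to 39 lower (12.5 to 70.2% and 7.1 to 52.5%). For C/EBPa, members higher on LD numbered 5 around the start (8.92% of all genes), 12 by number of peaks (9.63%) and 10 after rescaling (17.9%), and members lower 3 by number of peaks (13% of all genes) and 13 after rescaling (22.6%). Leaving out 1 sample gave 2 to 12 higher and 19 to 35 lower (11.7 to 23.2% and 38.6 to 62.5% of all genes). By number of peaks the C/EBPa ratio turned at Ass1 (0.415), Nags (0.263), Slc25a15 (0.193), Got1 (0.322), Gpt (0.652), Tat (0.447), Gnmt (0.126) and Ivd (0.322). The cause of these shifts was not tested. With 3 or 2 samples per diet an exact permutation test of 1 gene cannot reach 0.05, no model was fitted per gene to the peak lists, and a peak under a caller's threshold has no value.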

Other observations

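At several members the number of H3K27ac peaks and the length they covered went opposite ways. The Tat window held 1, 2 and 4 peaks in the CD samples and 5, 4 and 4 in the LD samples, although the covered share was lower on LD. The Hpd window held 2, 5 and 5 peaks on CD and 5, 7 and 8 on LD, again with less covered on LD. At Cps1 the peaks numbered 27, 26 and 28 on CD and 25, 21 and 4 on LD, so that LD replicate 3 differed there in number as well as in length.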
